A study of Mus musculus with 18 samples.

Results

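Semaphorins, plexins, neuropilins, Slits, Robos, Eph receptors and ephrins are the ligands and receptors through which cells steer growing axons, vessels and each other. They were followed here in epithelial cells sorted from mouse skin. Members were taken by symbol alone: the semaphorins of classes 3 to 7, the plexins, Nrp1 and Nrp2, the Slits, the Robos, the Eph receptors of both classes and the ephrins of both classes. The array annotation held 59 such genes among 18193, on 136 of its 45101 probe sets. Of these, 39 were tested, because a probe set of theirs exceeded the array median on 3 or more of the 18 arrays, among 11569 genes tested in all. The tested members were 14 of 20 semaphorins, 7 of 11 plexins and neuropilins, 2 of 3 Slits, 2 of 4 Robos, 7 of 13 Eph receptors and 7 of 8 ephrins.

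Semaphorins are secreted or membrane-bound ligands that signal mainly through plexins, and the secreted class often needs a neuropilin as co-receptor. Slits are secreted ligands of the Robo receptors, and ephrins are membrane-bound ligands of the Eph receptor tyrosine kinases, which signal in both directions where cells touch. In epithelia these systems act on cell position, adhesion and the boundaries between compartments, and Eph and ephrin signalling is known to influence proliferation in skin and hair follicles.

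The mice were K5tTA (FvB) x pTREH2B-GFP (CD1) animals, in which the keratin 5 promoter, active in basal epithelial cells, drives a repressible histone-GFP label. Food with 1 g of doxycycline per kg shut off label synthesis over PD18 to PD21 (PD, postnatal day) in some mice and over PD22 to PD25 in others, and divisions during that time diluted the label. Cells with the bulge surface markers CD34 and α6-integrin, from the stem cell niche of the hair follicle, were sorted into cells with 0 divisions (undivided) and cells with 1 to 2 divisions (divided). Other cells of the same mice formed the non-bulge fraction, for which no division class is given. All groups therefore shared the 2 transgenes and the doxycycline, and differed in fraction and in age. There were 3 arrays in each of 6 groups. The same 3 mice gave all 3 fractions at an age, so 6 mice were used. An array measured 5 ng of RNA after amplification. In such bulk samples, fewer cells of a type and less RNA per cell cannot be told apart.

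Values are given as log2(signal + 16), where the signal is the deposited probe set intensity, scaled in every array to a trimmed mean of 500. Array medians lay between 60.3 and 116.6, and the ratio of 3′ to 5′ Gapdh signal lay between 3.1 and 11.6. The arrays fell into 2 sets of 9 by the signal of the spiked-in bacterial control transcripts. The set of low control signal held mice 1 and 2 of PD21 and mouse 1 of PD25, and the other set held the remaining mice. The labels name no run or date, and each set held all 3 fractions of its mice. Cd34, one of the sorting markers, followed the labels, with means of 4.52 in non-bulge, 12.73 in undivided and 8.93 in divided bulge at PD21, and of 4.97, 12.39 and 12.06 at PD25. Itga6, which encodes the other sorting marker, had means of 13.14, 13.12 and 13.09 at PD21 and of 12.96, 12.86 and 12.97 at PD25, so its transcript did not separate the fractions.

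Sema3e, a secreted semaphorin that binds its plexin receptor Plxnd1 directly, was low in non-bulge cells and high in the bulge. Its signals in mice 1 to 3 at PD21 were 75.3, 61.4 and 392.8 in non-bulge cells, 8752.1, 6217 and 5948.9 in undivided bulge and 1292, 485.9 and 1769.4 in divided bulge. At PD25 they were 120.9, 176.2 and 140.9 in non-bulge cells, 7043.7, 4971.6 and 2512.8 in undivided bulge and 4130.2, 3911.4 and 4126.1 in divided bulge. No array of either bulge fraction overlapped the non-bulge arrays of its age. On the log2 scale the group means rose from 7.15 ± 1.32 (SD, n = 3) in non-bulge at PD21 and 7.33 ± 0.25 in non-bulge at PD25 through 10.04 ± 0.95 in divided bulge at PD21. The highest means were 11.99 ± 0.04 in divided bulge at PD25, 12.12 ± 0.75 in undivided bulge at PD25 and 12.75 ± 0.30 in undivided bulge at PD21. In this order, the neighbours among the 3 highest groups did not differ beyond their spread, nor did both non-bulge groups. Divided bulge at PD21 lay below divided bulge at PD25, as given with the ages.

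Ephb1, a receptor tyrosine kinase for the ephrins of class B, followed a similar order across the groups. Its signals in mice 1 to 3 at PD21 were 45.5, 84.8 and 66.2 in non-bulge cells, 1471.7, 3163.3 and 1479.8 in undivided bulge and 121.5, 390.1 and 382 in divided bulge. At PD25 they were 72, 34.5 and 104.5 in non-bulge cells, 3073.4, 2068.1 and 1658.2 in undivided bulge and 2320, 2210.2 and 1504.1 in divided bulge. The divided arrays thus lay between the other fractions at PD21 and overlapped the undivided arrays at PD25. Ephb1 exceeded the array median in 2 of 6 non-bulge arrays and in all 12 bulge arrays, so it passed the filter through the fractions in which it was high. Sema3d, another secreted semaphorin, ran the other way. Its log2 values at PD21 were 8.21, 9.90 and 9.14 in non-bulge cells, 6.98, 6.65 and 6.78 in undivided bulge and 8.46, 8.46 and 9.15 in divided bulge. At PD25 they were 9.08, 7.30 and 8.75, then 5.29, 6.18 and 5.37, then 7.02, 7.47 and 6.39 in the same order of fractions. Undivided arrays were below the non-bulge arrays of their age throughout.

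**Figure D1:**
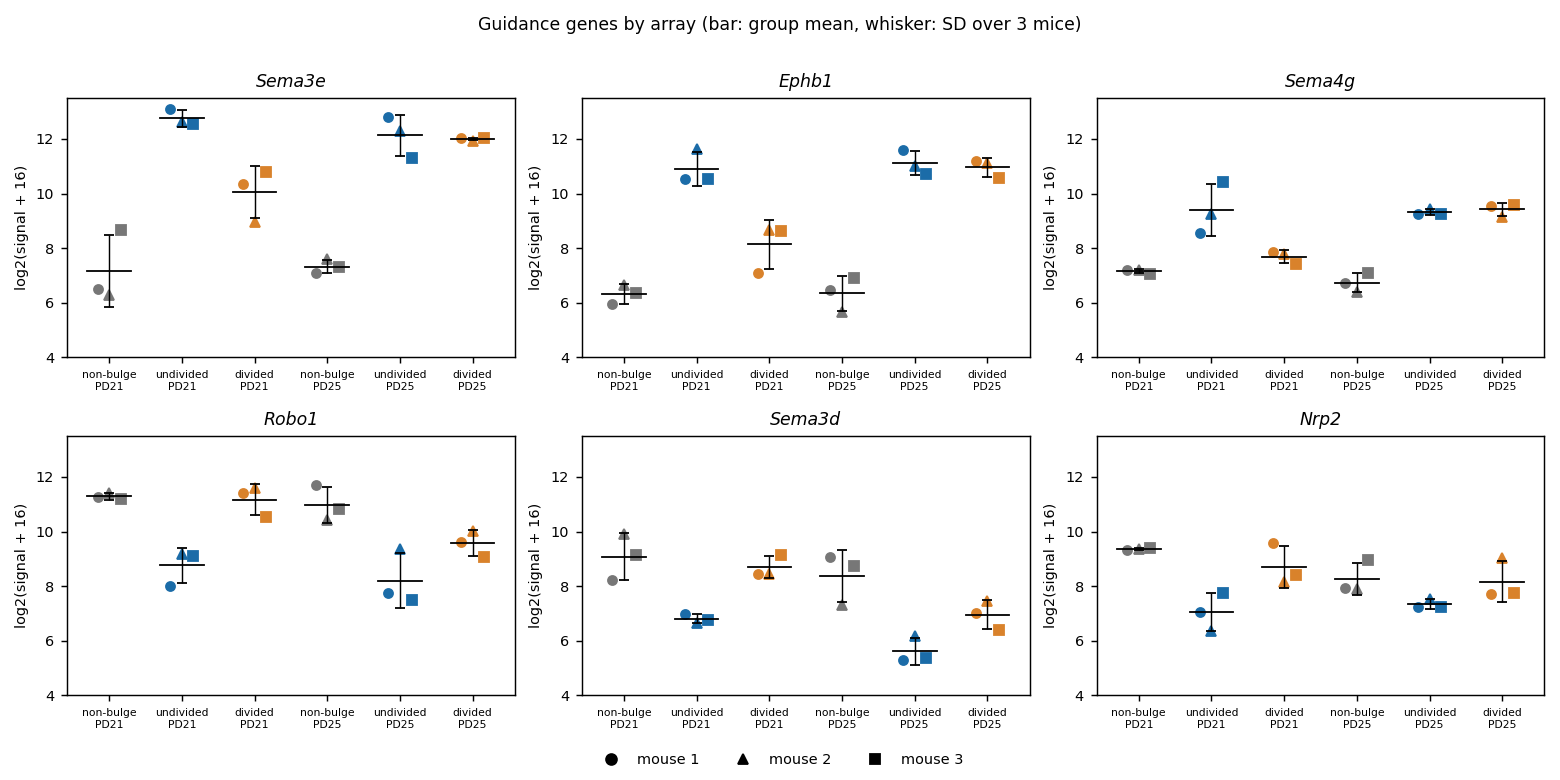
Log2(signal + 16) of 6 guidance genes in each of the 18 arrays, by group on the x axis, with the group mean as a bar and the SD over 3 mice as a whisker; symbols mark the mice. Sema3e, Ephb1 and Sema4g were high in undivided bulge at both ages, while Robo1 and Sema3d were low there; the divided arrays of Sema3e and Ephb1 lay between the other fractions at PD21 and level with undivided bulge at PD25.

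The promoters of these genes are shown because their transcripts ran in opposite directions across the same sorted fractions. Each window runs from 250 bases before to 50 bases after the RefSeq start site (GRCm38.p6), 5′ to 3′ on the strand of the gene. Capitals mark matches to any of 4 short motifs searched on both strands: the RUNX core TGTGGT, the SOX site ACAAAG, the LHX2 site TAATTA and the TCF/LEF site ATCAAAG, none of which contains another. Windows are chr5:14025026-14025325 (plus strand) for Sema3e, chr9:102354644-102354943 (minus strand) for Ephb1 and chr5:12382916-12383215 (plus strand) for Sema3d.
Sema3e: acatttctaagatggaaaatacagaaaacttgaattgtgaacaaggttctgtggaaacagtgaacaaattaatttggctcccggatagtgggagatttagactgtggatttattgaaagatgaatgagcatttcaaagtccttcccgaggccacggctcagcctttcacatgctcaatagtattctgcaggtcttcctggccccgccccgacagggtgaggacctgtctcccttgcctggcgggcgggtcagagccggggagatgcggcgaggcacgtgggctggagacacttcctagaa
Ephb1: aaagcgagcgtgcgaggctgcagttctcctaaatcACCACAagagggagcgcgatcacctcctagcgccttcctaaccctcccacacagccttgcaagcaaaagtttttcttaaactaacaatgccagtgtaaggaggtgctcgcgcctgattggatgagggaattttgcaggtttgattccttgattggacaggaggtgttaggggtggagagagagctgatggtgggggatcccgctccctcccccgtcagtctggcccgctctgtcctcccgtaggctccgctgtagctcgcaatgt
Sema3d: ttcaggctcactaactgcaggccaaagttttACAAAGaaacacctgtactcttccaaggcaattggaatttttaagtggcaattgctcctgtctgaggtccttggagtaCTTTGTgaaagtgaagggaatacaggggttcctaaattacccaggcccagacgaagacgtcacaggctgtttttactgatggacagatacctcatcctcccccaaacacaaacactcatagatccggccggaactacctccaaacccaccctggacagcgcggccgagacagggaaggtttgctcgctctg
The Ephb1 window held 1 RUNX core on the opposite strand, 215 bases before the start site. The Sema3d window held 2 SOX sites, 219 bases before the start on the gene's strand and 141 bases before it on the other. The Sema3e window held none of the 4 motifs. Over the 18 members that passed in any comparison below, 25 windows were matched by symbol. The RUNX core stood in 3 of them (Efna3, Ephb1 and Sema4d) against 16.8% of 32851 windows of all genes, and the SOX site in 2 (Plxnb1 and Sema3d) against 18.7%. The TCF/LEF site stood in 1 (Nrp2) against 3.73%, and the LHX2 site in 0 against 5.29%. A match describes the letters and shows no binding.

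Undivided bulge against non-bulge cells asks which guidance genes differed between bulge cells of 0 divisions and cells outside the bulge. At PD21, 8 of the 39 tested members were higher and 4 lower in undivided bulge (limma, adjusted p under 0.05), or 30.8% of them, where 11.0% of all tested genes passed, 6.12% higher and 4.93% lower. At PD25, 6 were higher and 3 lower, or 23.1%, where 10.5% of all genes passed, 5.71% higher and 4.83% lower. The median member stood at 0.365 at PD21 and 0.287 at PD25 on the log2 fold scale, against -0.052 and -0.023 for all genes. Both ages share no array, whereas the comparisons below reuse these arrays.

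Among the ligands of the semaphorin family, Sema3e was higher by 5.60 ± 0.48 (log2 fold change ± SE, n = 3 mice per group), or 48.3-fold, at PD21 and by 4.80 ± 0.48, or 27.8-fold, at PD25 (limma adjusted p = 2.21e-08 and 1.87e-07). All 4 of its probe sets gave the same sign, from 4.31 to 5.60 at PD21 and from 3.53 to 4.80 at PD25. Sema4g, a membrane-bound semaphorin, had values of 7.21, 7.20 and 7.06 in non-bulge and 8.54, 9.24 and 10.41 in undivided bulge at PD21. At PD25 they were 6.71, 6.40 and 7.09 against 9.26, 9.43 and 9.24. The fractions did not overlap, and the difference was 2.24 ± 0.42 at PD21 and 2.58 ± 0.42 at PD25. Sema4a, another membrane-bound semaphorin, was higher at PD25 by 0.95 ± 0.30 (limma adjusted p = 0.0411), with 0.21 ± 0.30 at PD21. Sema3d was lower by 2.28 ± 0.54 and 2.77 ± 0.54 at the respective ages, and both its probe sets agreed in sign. Sema4c, a membrane-bound ligand of plexin B receptors, stood at -1.48 ± 0.41 at PD21 (limma adjusted p = 0.0172) and at -0.77 ± 0.41 at PD25, which did not pass. Sema3c and Sema4b, named as the semaphorins with the brightest probe sets, stood at -0.19 ± 0.30 and -0.69 ± 0.30 at PD21 and passed in no comparison.

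Among the semaphorin receptors, Plxnb1, the receptor of Sema4d, was higher in undivided bulge by 1.03 ± 0.22 at PD21 and 0.75 ± 0.22 at PD25. Its values were 10.95, 10.97 and 11.37 against 12.19, 12.16 and 12.01 at PD21, and 11.30, 10.78 and 11.27 against 12.09, 11.89 and 11.62 at PD25, without overlap. Nrp2, a neuropilin that serves as co-receptor for secreted semaphorins and for VEGF-C, ran the other way at PD21. It had 9.31, 9.36 and 9.39 in non-bulge against 7.07, 6.36 and 7.75 in undivided bulge, a difference of -2.30 ± 0.49 (limma adjusted p = 0.00203). At PD25 the difference was -0.92 ± 0.49 (limma adjusted p = 0.307), and the test of its change between the ages gave 1.37 ± 0.69 (limma adjusted p = 1). The change between the ages was therefore not shown. Another Nrp2 probe set above the filter stood at -1.652 at PD21 and -1.615 at PD25. Plxna1 stood at 0.43 ± 0.36 and 0.60 ± 0.36.

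Robo1, a receptor for Slits, was lower in undivided bulge than in non-bulge at both ages. Its values were 11.25, 11.42 and 11.20 in non-bulge against 8.01, 9.19 and 9.09 in undivided bulge at PD21, and 11.69, 10.42 and 10.81 against 7.74, 9.34 and 7.50 at PD25. The difference was -2.53 ± 0.42 at PD21 (limma adjusted p = 0.00018) and -2.78 ± 0.42 at PD25 (limma adjusted p = 5.42e-05), and its 2 probe sets above the filter agreed in sign. Slit3, a Robo ligand with values near the array median, was lower at PD25 by 2.18 ± 0.64, from 7.40, 7.19 and 8.10 to 5.61, 6.19 and 4.35. At PD21 Slit3 stood at -0.43 ± 0.64. Slit1 and Robo2 did not pass, and Robo2 spread from 4.59 to 8.95 within undivided bulge at PD21.

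Among the Eph receptors, those of class B carried the differences. Ephb1 was higher by 4.59 ± 0.44, or 24.0-fold, at PD21 and by 4.77 ± 0.44, or 27.2-fold, at PD25. As its non-bulge signals were mostly below the array median, these folds depend on the pseudocount, and with 64 in place of 16 the differences were 3.94 and 4.11. Ephb6, a class B receptor without kinase activity, was higher by 1.65 ± 0.41 at PD21, with 9.57, 7.42 and 9.59 in non-bulge against 10.87, 10.11 and 10.56 in undivided bulge, and stood at 1.21 ± 0.41 at PD25 (limma adjusted p = 0.0603). Ephb3 and Ephb4 were higher at PD21 by 1.30 ± 0.35 and 1.10 ± 0.36 and stood at 0.29 ± 0.35 and 0.73 ± 0.36 at PD25, which did not pass. Of the class A receptors, Epha1 stood at 0.63 ± 0.29 and 0.32 ± 0.29, and Epha4 at -0.47 ± 0.25 and -0.65 ± 0.25, none of which passed.

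Among the ephrins, Efna3, a membrane-anchored ligand of class A, rose at both ages. Its values were 10.23, 9.87 and 10.18 in non-bulge against 12.01, 11.72 and 11.66 in undivided bulge at PD21, and 10.35, 10.20 and 10.20 against 11.59, 11.39 and 11.10 at PD25. The difference was 1.71 ± 0.22 at PD21 and 1.11 ± 0.22 at PD25 (limma adjusted p = 6.38e-06 and 0.00104), and both its probe sets agreed in sign. Efnb2, a transmembrane ligand of class B receptors, stood at 0.73 ± 0.31 and 0.86 ± 0.31 (limma adjusted p = 0.149 and 0.0882). Its 4 probe sets above the filter were all positive, from 0.735 to 1.984 at PD21 and from 0.858 to 1.059 at PD25. The 6 ephrins that did not pass stood between 0.365 and 1.81 at PD21 and between -0.326 and 0.892 at PD25.

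**Figure D2:**
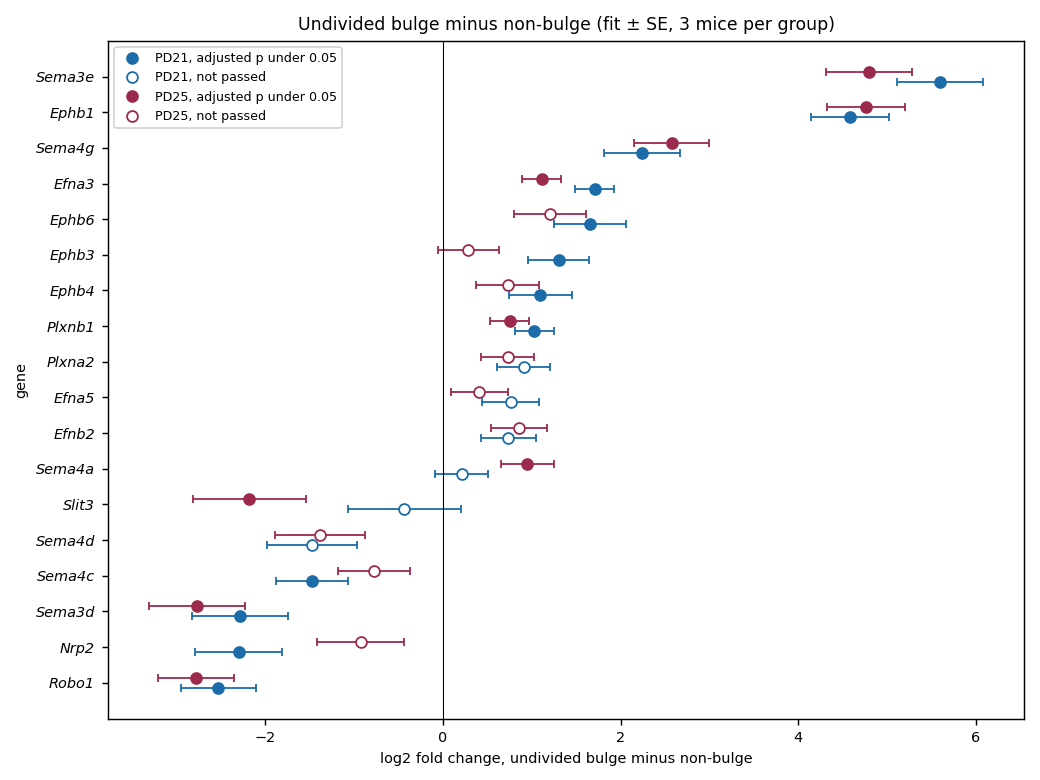
Log2 fold change of undivided bulge minus non-bulge on the x axis for the 18 guidance genes that passed in any comparison (y axis), with the SE of the fit; blue points are PD21, red points PD25, and filled points passed at an adjusted p of 0.05. Sema3e and Ephb1 stood between 4.59 and 5.60 at both ages, and Robo1 and Sema3d between -2.78 and -2.28.

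With the mouse as a block, 17 members passed at PD21, the others being Efna4, Efna5, Efnb2 and Plxna2 (higher) and Sema4d (lower), and 11 at PD25, with Efnb2 and Ephb6 added as higher. The block raised the calls among all 11569 genes too, from 1278 to 1926 at PD21 and from 1220 to 1700 at PD25. Within the array set of low control signal 12 members passed at PD21 and 4 at PD25, and within the other set 3 and 8, where a set holds 1 or 2 mice of an age and the spread of a lone array is taken from the other groups. Sema3e stood at 6.46 and 3.87 within these sets at PD21 and at 5.69 and 4.35 at PD25, and passed in each. Robo1 stood at -2.74 and -2.11 within them at PD21, the latter without passing (limma adjusted p = 0.151). Some PD21 calls rested on single arrays. Without non-bulge mouse 1, Ephb3 stood at 0.87 (limma adjusted p = 0.134) and Sema4c at -1.42 (0.0626), and without non-bulge mouse 2, Ephb6 stood at 0.93 (0.065) and Sema4c at -1.43 (0.0619). Without undivided mouse 1, Ephb3 stood at 0.98 (0.119), Ephb6 at 1.47 (0.0506) and Sema4c at -0.95 (0.167). Ephb4 kept its call only without undivided mouse 2 or divided mouse 3 of PD21 or divided mouse 1 or 3 of PD25, and otherwise stood at 0.78 to 1.24 (0.0508 to 0.233). At PD25, Plxnb1 was lost without non-bulge mouse 2 (0.58, adjusted p = 0.143), undivided mouse 1 (0.64, 0.14) or undivided mouse 2 (0.74, 0.0845). Slit3 was lost without non-bulge mouse 1 (-2.26, 0.0565) or mouse 3 (-1.91, 0.122) and without undivided mouse 1 (-2.29, 0.0541) or mouse 3 (-1.67, 0.155). Sema4a was lost without non-bulge mouse 1 of PD21, any non-bulge mouse of PD25 or undivided mouse 1 or 2 of PD25, at 0.85 to 0.98 (0.0507 to 0.164).

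Markers of other skin cells moved with these fractions in part. The summed signal of 6 dermal fibroblast markers was 202 to 256 in non-bulge, 793 to 1158 in undivided and 674 to 1723 in divided bulge at PD21. At PD25 it was 174 to 545, 677 to 1036 and 1206 to 2660, and 3 of the 6 (Pdgfra, Dcn and Lum) exceeded the array median in at most 1 array. In undivided bulge at PD21 this sum followed Col1a1, with a log2 mean of 9.83 against 5.73 in non-bulge. Col1a2 (5.63 against 6.54) and Col3a1 (4.85 against 5.23) were lower there. In undivided bulge at PD25 their means were above non-bulge, at 6.582 against 6.15 and 6.635 against 5.834. In divided bulge all 3 collagens had means above non-bulge at both ages. Col1a2 had 7.563 against 6.542 at PD21 and 8.373 against 6.15 at PD25, and Col3a1 7.623 against 5.226 and 8.155 against 5.834. The sum of 6 melanocyte markers was 429 to 638, 1005 to 3718 and 448 to 1068 at PD21 and 163 to 383, 797 to 1271 and 1064 to 1778 at PD25, while Tyr, Tyrp1 and Mlana exceeded the median in at most 1 array. This sum was mostly Mitf, with log2 means of 8.6, 10.9 and 8.8 at PD21 and 7.6, 9.6 and 10.1 at PD25. Dct had 6.2, 6.7 and 6.4 at PD21 and 4.8, 7.0 and 6.9 at PD25. The 2 measured nerve and Schwann cell markers summed to at most 57 in non-bulge and at most 184 in bulge arrays. The part of these cells in the guidance gene differences was not tested. The 7 immune markers summed to 307 to 2220 and the 5 pericyte and muscle markers to 49 to 397 over all arrays, with their highest values in non-bulge arrays of PD21. All 7 endothelial markers were too dim to be tested, with a sum of 69 to 248 over all arrays.

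Divided bulge against non-bulge cells gave a single call at PD21, where 0.182% of all genes passed: Sema3e, higher by 2.89 ± 0.48 or 7.40-fold (limma adjusted p = 0.00696). Ephb1 stood at 1.82 ± 0.44 (limma adjusted p = 0.146, and 0.0231 with the mouse as a block). The block gave 2 calls among the members and 49 among all genes, against 21 without it. The divided values of Ephb1 of 7.10, 8.67 and 8.64 lay above the non-bulge values of 5.94, 6.66 and 6.36. Robo1 stood at -0.12 ± 0.42, with 11.41, 11.59 and 10.52 in divided against 11.25, 11.42 and 11.20 in non-bulge cells, so its fractions overlapped. Sema3d stood at -0.40 ± 0.54, Sema4g at 0.53 ± 0.42 and Nrp2 at -0.65 ± 0.49. The Sema3e call was lost without non-bulge mouse 2 (2.45, limma adjusted p = 0.0728), divided mouse 1 (2.73, 0.0552) or divided mouse 3 (2.51, 0.101). It stood at 3.27 within the set of low control signal (limma adjusted p = 0.00422) and at 2.13 within the other, which holds 1 mouse of that age (0.251).

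At PD25, 7 members were higher and 1 lower in divided bulge than in non-bulge, or 20.5% of the members against 8.87% of all genes, 5.62% higher and 3.25% lower. Sema3e was higher by 4.67 ± 0.48, Ephb1 by 4.62 ± 0.44 and Sema4g by 2.69 ± 0.42, the last with 9.55, 9.14 and 9.58 against 6.71, 6.40 and 7.09. Among the receptors, Ephb6 was higher by 1.51 ± 0.41, with 10.93, 10.12 and 11.19 against 9.29, 9.10 and 9.31, and Plxnb1 by 0.94 ± 0.22. Among the ephrins, Efna3 was higher by 1.03 ± 0.22 and Efnb2 by 1.00 ± 0.31, although the Efnb2 values of 13.60, 12.55 and 12.94 overlapped the 12.66, 11.40 and 12.02 of non-bulge cells. Robo1 was lower by 1.41 ± 0.42, with 9.63, 10.00 and 9.06 against 11.69, 10.42 and 10.81. Slit3 stood at -1.98 ± 0.64 and passed only with the mouse as a block (limma adjusted p = 0.0535, and 0.0338 with the block). Within the sets 3 members passed in the arrays of low control signal, where 1 mouse of that age is left, and 6 in the others. Without divided mouse 3, 5 members passed, with Ephb6 at 1.29 (limma adjusted p = 0.107) and Robo1 at -1.16 (0.186). Ephb6 was also lost without non-bulge mouse 2 (1.44, 0.0643) or divided mouse 1 (1.42, 0.0716). Robo1 was also lost without non-bulge mouse 1 (-1.05, 0.229) or mouse 3 (-1.49, 0.0646) or divided mouse 1 (-1.44, 0.0821). Efnb2 kept its call without non-bulge mouse 3, undivided mouse 3, divided mouse 1 or divided mouse 3 of PD21, or non-bulge mouse 1, undivided mouse 1 or 3 or divided mouse 2 of PD25, and was lost without any other array, at 0.69 to 1.05 (0.0513 to 0.27).

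**Figure D3:**
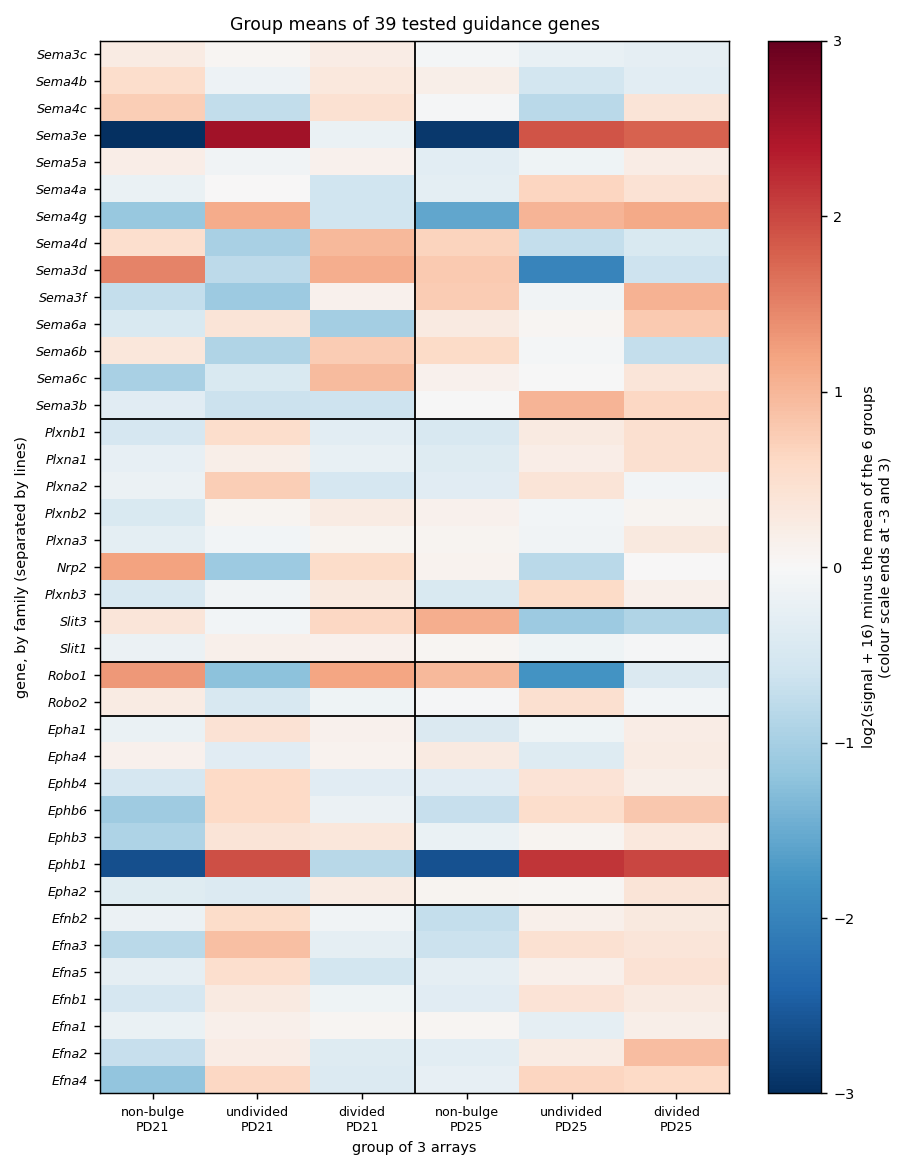
Group means of the 39 tested guidance genes (rows, by family) in the 6 groups (columns), each minus the mean of the 6 groups of that gene on the log2(signal + 16) scale; red is above and blue below that mean, and the colours end at -3 and 3. In Sema3e and Ephb1 the divided bulge stood between the other fractions at PD21 (10.04 and 8.13) and level with undivided bulge at PD25 (11.99 and 10.96).

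Division history within the bulge was compared directly by setting divided against undivided cells of the same mice. At PD21, 4 members were higher and 7 lower in divided cells, or 28.2% of the members against 8.28% of all genes, 3.91% higher and 4.37% lower. The median member stood at -0.033, against 0.069 for all genes. Those that were lower included Sema3e at -2.71 ± 0.48 and Ephb1 at -2.77 ± 0.44 (limma adjusted p = 0.000566 and 0.000189), and Sema4g at -1.71 ± 0.42, with 7.84, 7.79 and 7.42 in divided against 8.54, 9.24 and 10.41 in undivided bulge. Among the plexins, Plxna2, a plexin of class A, had 9.88, 10.09 and 10.26 against 11.15, 11.61 and 11.21, a difference of -1.25 ± 0.30, and Plxnb1 stood at -0.84 ± 0.22. Among the ephrins, Efna3 was lower by 1.17 ± 0.22, with 10.36, 10.95 and 10.58 against 12.01, 11.72 and 11.66, and Efna5, another anchored ligand of class A, by 1.04 ± 0.32, with 9.16, 9.42 and 10.24 against 10.84, 10.51 and 10.59. None of the fractions of these genes overlapped. The other Efna3 probe set above the filter stood at only -0.223, with means of 9.212 in non-bulge, 10.087 in divided and 10.311 in undivided bulge. The other Efna5 probe set stood at -1.068.

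The members higher in divided bulge at PD21 were Robo1 by 2.41 ± 0.42, Sema4d by 1.93 ± 0.51, Sema3d by 1.89 ± 0.54 and Nrp2 by 1.65 ± 0.49. Sema4d, a membrane-bound ligand of Plxnb1, had 9.29, 9.23 and 7.51 in divided against 6.23, 7.23 and 6.76 in undivided bulge, with 8.37, 7.86 and 8.41 in non-bulge cells. Nrp2 had 9.58, 8.14 and 8.41 against 7.07, 6.36 and 7.75. The divided values of these genes lay above all undivided values, and those of all 4 overlapped the non-bulge values. Measured as the share of the way from the non-bulge mean to the undivided mean on the log2 scale, the divided mean stood at 51.6% for Sema3e, 39.6% for Ephb1, 31.4% for Efna3 (by its brighter probe set), 23.6% for Sema4g, 18.4% for Plxnb1, 17.3% for Sema3d and 4.6% for Robo1. For the other members that passed for undivided bulge against non-bulge at PD21 it was 95.9% for Ephb3, 53.9% for Ephb6, 28.1% for Nrp2, 19% for Sema4c and 14.5% for Ephb4. The same share was 53.7% for the sorting marker Cd34. Among other bulge markers it was 47.6% for Lhx2, 41.6% for Dkk3, 40.6% for Sfrp1, 34.6% for Lgr5, 29.3% for Sox9 and 7.66% for Tcf7l1. For Gata3 and Ly6d, markers of epidermis outside the bulge, it was 11.2% and -4.74%.

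Markers of other epithelial cells moved with these genes in part. Of 8 markers of basal and differentiating epidermis, Ly6d and Gata3 were higher in divided than in undivided bulge at PD21, by 2.04 ± 0.28 and 1.37 ± 0.30, and 6 did not pass. Of 5 markers of the upper follicle and sebaceous gland, Pparg was higher by 2.55 ± 0.69 and 4 did not pass. The summed signal of these 5 was 23579 to 38241 in non-bulge, 11353 to 22121 in undivided and 19732 to 40881 in divided bulge at PD21. The part of these cells and of the sort in the guidance gene values was not tested.

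**Figure D4:**
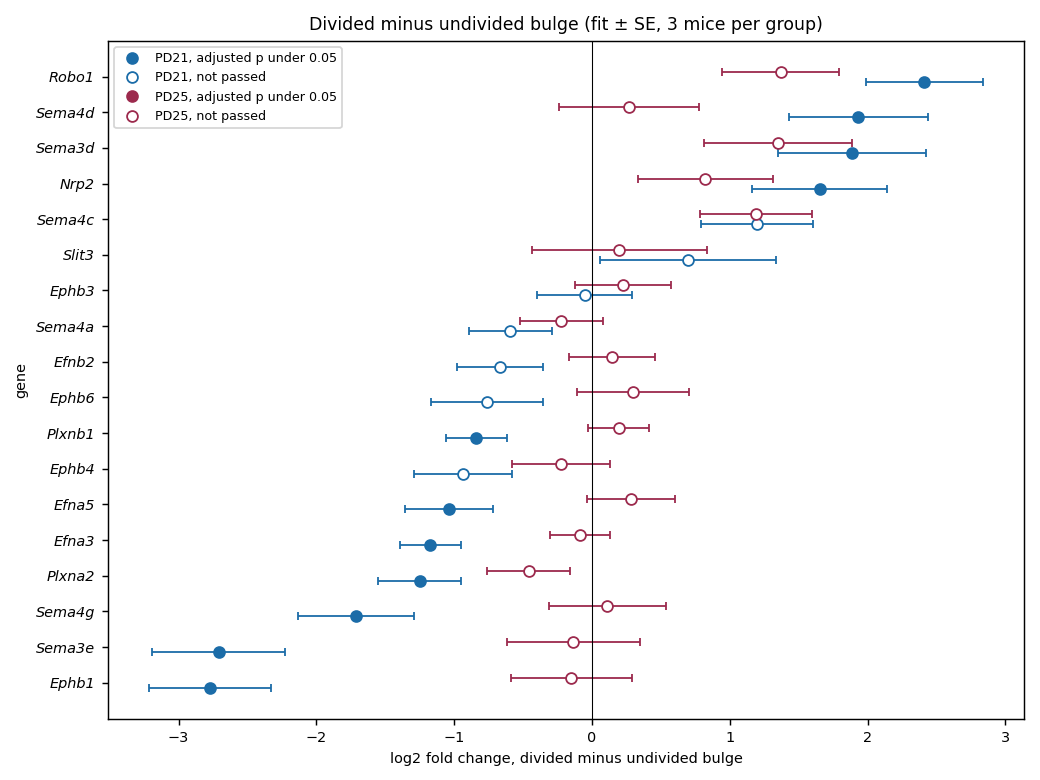
Log2 fold change of divided minus undivided bulge on the x axis for the 18 guidance genes that passed in any comparison (y axis), with the SE of the fit; blue points are PD21, red points PD25, and filled points passed at an adjusted p of 0.05. At PD21 the filled points ran from -2.77 for Ephb1 to 2.41 for Robo1, while no PD25 point passed.

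With the mouse as a block, 15 members passed at PD21, with Efnb2 and Ephb4 added as lower and Sema4c and Sema6b as higher. Among all genes the calls rose as well, from 958 to 1533. Within the set of low control signal 10 members passed, and within the other set, with 1 mouse of that age, only Sema4g passed, at -2.99 (limma adjusted p = 0.0343). There Sema3e stood at -1.74 (0.139), Ephb1 at -1.91 (0.2) and Robo1 at 1.43 (0.497), against -3.19, -3.20 and 2.90 in the set of low control signal. Without divided mouse 1 of PD21, 6 members passed, and without divided mouse 2 or undivided mouse 1, 7 did. Sema3d was lost without any divided or undivided array of PD21, at 1.66 to 2.00 (0.0565 to 0.107), and Sema4g without undivided mouse 3 (-1.20, 0.0994). Sema4d was lost without undivided mouse 1 (1.68, 0.0835), divided mouse 1 (1.63, 0.105) or divided mouse 2 (1.66, 0.102). Nrp2 was lost without undivided mouse 1 (1.66, 0.0835), undivided mouse 2 (1.30, 0.159) or divided mouse 1 (1.22, 0.22). Plxnb1 was lost without undivided mouse 1 (-0.80, 0.0617) or mouse 2 (-0.82, 0.0523) and without divided mouse 1 (-0.84, 0.0541) or mouse 2 (-0.71, 0.106). Efna5 was lost without non-bulge mouse 1, any undivided mouse or divided mouse 1 or 2 of PD21, or non-bulge mouse 3 or undivided mouse 2 of PD25, at -0.81 to -1.11 (0.0522 to 0.223).

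At PD25 no member passed between divided and undivided bulge in limma, nor did any of the 11569 genes, with 4 members and 635 genes at an unadjusted p under 0.05. With the mouse as a block 10 genes passed, 0 of them members. Sema3e stood at -0.13 ± 0.48 (unadjusted 95% interval -1.13 to 0.86), Ephb1 at -0.15 ± 0.44 (-1.06 to 0.76), Sema4g at 0.11 ± 0.42 (-0.77 to 0.99) and Efna3 at -0.09 ± 0.22 (-0.54 to 0.37). The 4 members at an unadjusted p under 0.05 were Robo1 at 1.37 ± 0.42 (interval 0.49 to 2.25, limma adjusted p = 0.51), Sema3d at 1.35 ± 0.54 (0.23 to 2.46), Sema4c at 1.19 ± 0.41 (0.35 to 2.03) and Epha4 at 0.63 ± 0.25 (0.12 to 1.14). Robo1 had 9.63, 10.00 and 9.06 in divided against 7.74, 9.34 and 7.50 in undivided bulge, so these fractions overlapped. The divided mean of Robo1 stood at 50.7% and that of Sema3d at 51.3% of the way from non-bulge to undivided, against 97.2% for Sema3e and 96.9% for Ephb1. These shares are a description of 3 mice.

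The ages were then compared within each fraction. In limma no member passed in non-bulge cells, where 0.0432% of all genes passed (0.0259% higher and 0.0173% lower), or in undivided bulge, where 0.0951% did (0.0605% higher and 0.0346% lower). At an unadjusted p under 0.05 there were 5 and 3 members, against 511 and 929 of all genes. In divided bulge, 5 members were higher and 2 lower at PD25, or 17.9% of the members against 7.84% of all genes, 4.37% higher and 3.47% lower. Ephb1 was higher by 2.83 ± 0.44 (limma adjusted p = 0.000203), Sema3e by 1.95 ± 0.48 and Sema4g by 1.73 ± 0.42, and the values of PD21 and PD25 given above did not overlap for any of them. Sema4a, with 8.91, 8.86 and 9.34 at PD21 against 10.01, 10.06 and 10.10 at PD25, was higher by 1.02 ± 0.30, and Plxnb1, with 11.29, 11.03 and 11.54 against 12.15, 11.84 and 12.20, by 0.78 ± 0.22. Sema3d was lower by 1.73 ± 0.54 and Robo1 by 1.61 ± 0.42, the latter from 11.41, 11.59 and 10.52 to 9.63, 10.00 and 9.06.

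These age calls used different mice and rested on few arrays. Sema3d was lost with the mouse as a block (limma adjusted p = 0.063) and kept its call only without non-bulge mouse 1 or 2 of either age, standing otherwise at -1.44 to -1.99 (0.0502 to 0.221). Without divided mouse 2 of PD21, 2 members passed, with Sema3e at 1.41 (0.116), Plxnb1 at 0.65 (0.17), Robo1 at -1.40 (0.112) and Sema4a at 0.93 (0.14). Without divided mouse 1 of PD21, 3 members passed, with Plxnb1 at 0.78 (0.0903), Robo1 at -1.49 (0.0922) and Sema4a at 0.96 (0.126). Without divided mouse 3 of PD25, 2 members passed, with Sema4g at 1.66 (0.0543), Plxnb1 at 0.71 (0.124), Robo1 at -1.36 (0.112) and Sema4a at 1.00 (0.108). Without divided mouse 1 of PD25, 4 members passed, with Plxnb1 at 0.73 (0.0923) and Sema4a at 1.04 (0.0781), and without divided mouse 2 Sema4a stood at 1.02 (0.0816). Within the set of low control signal 4 members passed and Ephb1 stood at 3.31 (limma adjusted p = 0.0121). Within the other set 0 passed and Ephb1 stood at 2.21 (0.0782).

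Whether a fraction difference itself changed between the ages was tested as an interaction. No member, and no gene of all 11569, passed for undivided bulge against non-bulge in limma, with 1 member and 446 genes at an unadjusted p under 0.05. With the mouse as a block 2 genes passed, 0 of them members. For divided bulge against non-bulge only Ephb1 passed, at 2.80 ± 0.62 (limma adjusted p = 0.0219), where 1.63% of all genes did, 0.916% higher and 0.717% lower. For divided against undivided bulge only Ephb1 passed, at 2.62 ± 0.62 (limma adjusted p = 0.0354), where 1.18% of all genes did, 0.813% higher and 0.372% lower. Sema3e stood at 1.78 ± 0.68 (limma adjusted p = 0.240) and 2.57 ± 0.68 (0.0612) in these tests, and Sema4g at 2.16 ± 0.60 (0.0709) and 1.82 ± 0.60 (0.138). With the mouse as a block, 3 members passed in the first (Ephb1, Efnb2 and Sema4g) and 6 in the second (Ephb1, Sema3e, Efna3, Efna5, Efnb2 and Plxnb1), all of them relatively higher in divided bulge at PD25. Calls among all genes rose with the block from 189 to 451 in the first and from 137 to 506 in the second. The Ephb1 call against non-bulge was lost without divided mouse 1 of PD21 (2.29, limma adjusted p = 0.0736), non-bulge mouse 2 of PD25 (2.46, 0.0553) or divided mouse 1 of PD25 (2.69, 0.0614). The Ephb1 call against undivided bulge was lost without undivided mouse 1 (2.81, 0.0516) or mouse 2 (2.26, 0.0838) or divided mouse 1 (2.11, 0.106) of PD21, and without undivided mouse 2 (2.58, 0.0885) or mouse 3 (2.42, 0.104) or divided mouse 1 (2.51, 0.094) or mouse 2 (2.54, 0.0507) of PD25. Within the sets the changes of Ephb1 were 3.15 and 2.28 against non-bulge and 2.80 and 1.89 against undivided bulge, and none of them passed.

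Other guidance genes were followed as a list of 70 netrins, repulsive guidance molecules, co-receptors and intracellular effectors, of which 52 were tested. In undivided bulge against non-bulge, 7 were higher and 2 lower at PD21 and 11 were higher and 3 lower at PD25. In divided bulge against non-bulge, 0 passed at PD21, and 9 were higher and 1 lower at PD25. Between divided and undivided bulge, 1 was higher and 6 lower at PD21 and 0 passed at PD25. As background for these counts of 52, 11.0% of all tested genes passed for undivided bulge against non-bulge at PD21 and 10.5% at PD25. For divided bulge against non-bulge the percentages were 0.182 and 8.87, and for divided against undivided bulge 8.28 and 0.

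Among the effectors, Dpysl3 and Dpysl2, collapsin response mediators that relay semaphorin signals to the cytoskeleton, were higher in undivided bulge. Dpysl3 had 7.81, 5.84 and 7.97 in non-bulge against 10.63, 10.00 and 11.13 in undivided bulge at PD21, a difference of 3.38 ± 0.49, and stood at 4.42 ± 0.49 at PD25. Dpysl2 stood at 1.68 ± 0.62 at PD21 (limma adjusted p = 0.0863) and was higher by 3.88 ± 0.62 at PD25, from 4.64, 5.63 and 6.48 to 9.32, 9.66 and 9.43. Nck2, an adaptor that links guidance receptors to actin, was higher by 1.76 ± 0.28 and 1.85 ± 0.28, and its difference of divided from undivided bulge at PD21 was -1.36 ± 0.28. Grip1, a scaffold that binds class B Eph receptors and ephrins, was higher by 2.81 ± 0.58 and 2.65 ± 0.58, and its difference of divided from undivided bulge at PD21 was -3.02 ± 0.58. The kinase Fyn was higher by 3.26 ± 0.59 and 2.47 ± 0.59 and the exchange factor Farp1 of plexin signalling by 1.83 ± 0.45 and 1.87 ± 0.45. Srgap1, a GTPase-activating protein that binds Robo receptors, was higher at PD21 by 3.35 ± 0.66, and the kinase Abl2 at PD25 by 0.79 ± 0.25. At the other age neither passed, with means of 4.542 in non-bulge against 6.068 in undivided bulge for Srgap1 and 9.967 against 10.726 for Abl2. Non-bulge values at PD21 were 4.225, 4.293 and 4.426 for Fyn and 4.162, 5.244 and 4.087 for Srgap1. Both were below the median in every non-bulge array, so they passed the filter through the bulge fractions. Their folds depend on the pseudocount. Vav3, an exchange factor used by Eph receptors, ran the other way, from 12.31, 12.19 and 11.91 in non-bulge to 10.62, 10.18 and 9.83 in undivided bulge at PD21. Its difference was -1.93 ± 0.25 at PD21 and -1.24 ± 0.25 at PD25, and it was higher in divided than in undivided bulge at PD21 by 1.65 ± 0.25. In divided bulge at PD25 the means of Dpysl3, Dpysl2, Nck2 and Grip1 were 9.98, 9.07, 11.44 and 9.15. Those of non-bulge cells were 6.66, 5.59, 9.48 and 6.22. Farp1 had a mean of 10.13 in divided bulge against 7.45 in non-bulge at PD25. For Abl2 the mean was 9.6 in divided against 10.7 in undivided bulge at PD21.

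Among the other ligands and receptors, Neo1, the receptor neogenin, was higher in undivided bulge at PD25 by 1.43 ± 0.26, and Flrt3, a membrane protein that binds Unc5 receptors, was higher at PD21 by 1.5 ± 0.31. At the other age both had the same sign without passing. Neo1 had means of 12.288 in non-bulge and 13.024 in undivided bulge at PD21, and Flrt3 had 10.483 and 11.414 at PD25. Ntn4, a secreted netrin, was lower in undivided bulge at PD25 by 2.47 ± 0.36, from 10.86, 11.13 and 11.21 to 9.06, 8.44 and 8.31. In divided bulge of that age Ntn4 had 12.01, 10.20 and 10.01, and its difference from undivided bulge was 2.14 ± 0.36 (limma adjusted p = 0.052). At PD21 Ntn4 had means of 11.119 in non-bulge and 10.263 in undivided bulge, a difference that did not pass. In all, 17 genes of this list passed between some pair of fractions.

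**Figure D5:**
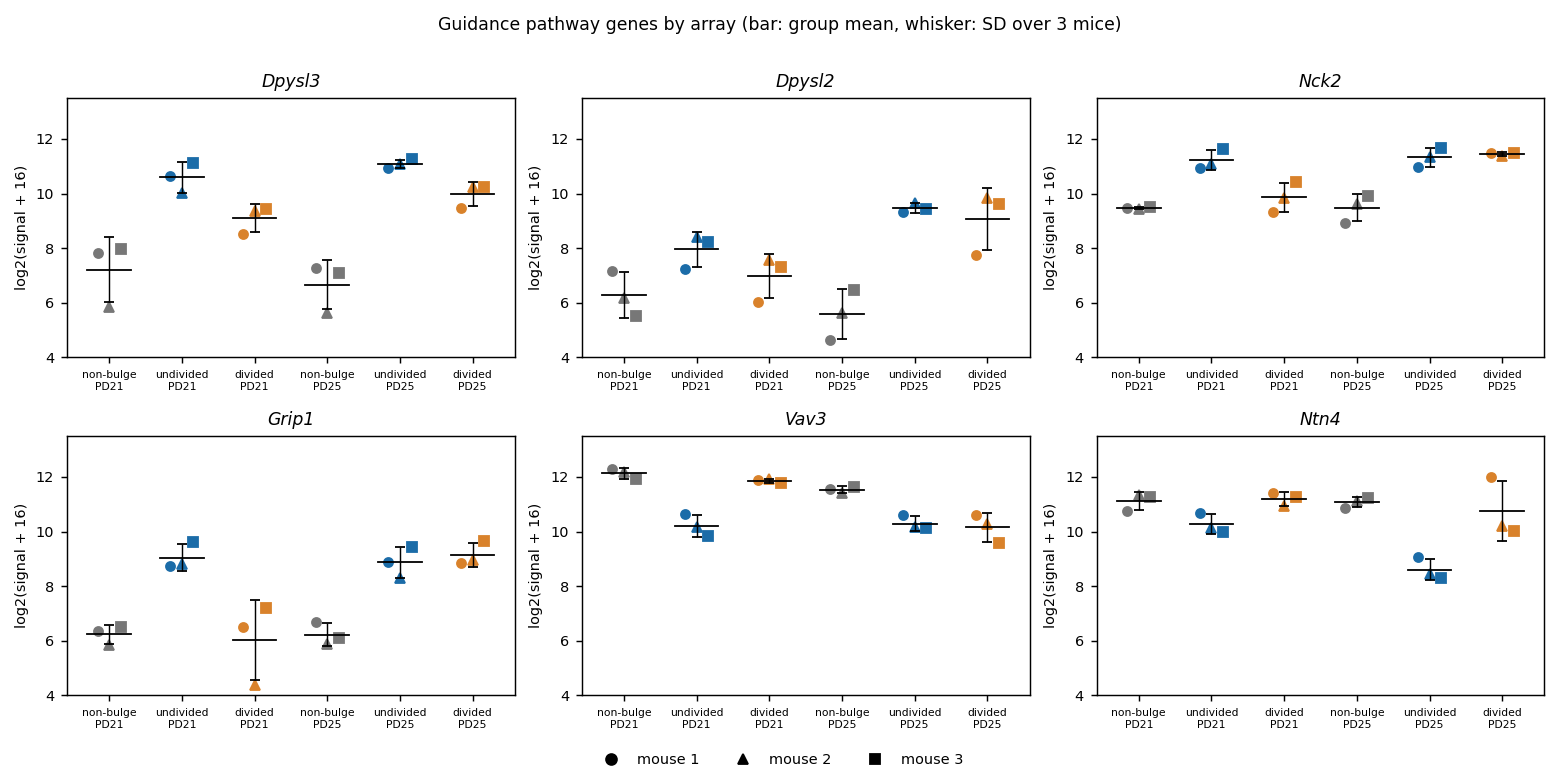
Log2(signal + 16) of 6 further guidance pathway genes in each of the 18 arrays, by group on the x axis, with the group mean as a bar and the SD over 3 mice as a whisker; symbols mark the mice. Dpysl3, Nck2 and Grip1 were high in undivided bulge at both ages and Dpysl2 at PD25. All 4 were also above non-bulge in divided bulge at PD25. Vav3 was low in undivided bulge at both ages and in divided bulge at PD25.

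The other 21 tested members passed in none of the 12 comparisons. At PD21 they stood between -1.25 and 1.81 in undivided bulge against non-bulge, and between -1.40 and 1.68 in divided against undivided bulge. The 20 members that were not tested, Plxnd1, Nrp1, Slit2 and Sema3a among them, exceeded the array median in at most 2 of 18 arrays, and 11 of them in 0. Their log2 values lay between 4.05 and 7.31. Plxnd1, the receptor of Sema3e, and Nrp1 exceeded the median in 2 arrays each and were not tested. The brightest Nrp1 probe set had 4.92, 4.98 and 4.24 in non-bulge against 5.95, 6.60 and 6.56 in undivided bulge at PD21, without overlap, and 5.71, 5.17 and 4.81 against 4.85, 6.04 and 4.78 at PD25, with overlap. Its 4 probe sets ranged from -0.67 to 1.66 between these fractions at PD21 and differed in sign.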

How the data were processed

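RNA of sorted cells was measured on 18 Affymetrix mouse arrays. The authors deposited 1 intensity per probe set, made with GCOS per the submitters' processing notes (GCOS version: not given in the sources used here). As the trimmed mean (2% trimmed) was 500 on each array, no normalisation was added. Present calls were not used here. The number of arrays limits the precision.

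Probe sets with 1 gene symbol (34945, besides 64 controls) were kept when above the median of their array in at least 3 arrays, and the probe set of highest mean stood for its gene. With limma 3.58.1 in R 4.3.3, the 6 group means were fitted to log2(signal + 16) over all 18 arrays (lmFit, eBayes with a trend, 12 residual and 11.2 prior degrees of freedom). P-values were Benjamini-Hochberg adjusted over the 11569 genes of a comparison, and genes passed at 0.05. For dim genes, folds on this scale are too small. The procedure was tested on simulated data. Groups and mouse numbers come from the titles, and all value columns were mapped (0 left out).

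Members and lists were chosen with earlier results of these data known. Named with values are Sema3e, members that passed in any of 12 comparisons, the 2 of highest mean in each of 6 families, and, of the pathway genes that passed between fractions, the 12 of lowest p. Same-numbered arrays of an age are the same mouse, and their residuals correlated at 0.075 to 0.462. The mouse was therefore fitted as a block (random for the ages, correlation 0.231). Other alternatives were a pseudocount of 64, no filter, quantile normalisation, all probe sets, no trend and leaving out each array. Fits by set of control signal were added after the data were seen. Promoter sequences are RefSeq's (GRCm38.p6).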

Additional observations from a re-analysis of the deposited data

Results flagged for a closer look

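Ephb1 differed between the ages in its fraction differences, by a test of the change itself, and was the 1 member to pass without the mouse as a block. With the block, 3 members passed against non-bulge and 6 against undivided bulge, Ephb1 among them in both. Among all genes, 451 and 506 passed with the block. From PD21 to PD25, divided bulge minus non-bulge rose by 2.80 ± 0.62 (limma adjusted p = 0.0219) and divided minus undivided bulge by 2.62 ± 0.62 (limma adjusted p = 0.0354). Both tests share the divided arrays, whose Ephb1 values were 7.10, 8.67 and 8.64 at PD21 and 11.19, 11.12 and 10.57 at PD25. Leaving out divided mouse 1 of PD21, the lowest of these, gave 2.29 (0.0736) and 2.11 (0.106). Ephb1 is read by 1 probe set, so no other probe set bears on it.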

How the results depend on the processing

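All 50 calls kept their direction in each of 27 alternatives: in 1350 refits, 1155 stayed past the threshold, 195 did not and 0 reversed. The calls of Sema3e and Ephb1 for undivided bulge against non-bulge at both ages and for divided bulge against non-bulge at PD25 were kept in every alternative. With the replicate block (mouse), the count of members that passed became 2 for divided against non-bulge at PD21, 3 for its change between the ages and 6 for the change of divided against undivided bulge, and it moved no other count by over 1.5 times. The counts of all genes in these comparisons became 49, 451 and 506. With the set of control signal as a block those changes had 3 and 4 calls. Without a variance trend the same comparison at PD21 and both changes had 0. A pseudocount of 64 and quantile normalisation each gave 2 calls for the change of divided against undivided bulge. With all probe sets, 14 members passed for undivided bulge against non-bulge at PD25. Within the arrays of low control signal, 4 passed in that comparison, 3 for divided against non-bulge at PD25, 4 for PD25 against PD21 in divided bulge and 0 for both changes. Within the arrays of high control signal, 3 passed for undivided against non-bulge at PD21, 1 for divided against undivided at PD21, and 0 for divided against non-bulge at PD21, the age comparison in divided bulge and both changes. Leaving out single arrays gave 9 to 13 calls for undivided against non-bulge at PD21, 6 to 10 at PD25, 0 to 1 and 5 to 9 for divided against non-bulge, 6 to 12 for divided against undivided at PD21, 2 to 9 for the ages in divided bulge and 0 to 2 for each change. Quantile normalisation shifted the median of all genes by at most 0.037. The cause of these moves was not tested. Signal over background limits the 20 untested members and those tested members that exceeded the array median in 9 or fewer arrays (Sema3b, Plxnb3, Sema6c, Sema6b, Slit1, Slit3 and Efna4).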
